A study of Mus musculus with 8 samples.

Results

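Integrins and laminins, the receptors and ligands that tie heart muscle cells to their basement membrane, were read in ventricular transcriptomes of mice carrying a Pkp2 mutation. The genes were chosen by symbol, as every integrin alpha chain, integrin beta chain and laminin chain in the count table: 37 of 38293 genes, made up of 18 alpha chains, 8 beta chains and 11 laminin chains. The comparison is between 2 groups of 4 libraries each. HET libraries came from mice heterozygous for PKP2 c.1755delA (PKP2 c.1755delA/WT), and WT libraries from PKP2 WT/WT mice, all at 8 weeks of age and from a mix of left and right ventricle. The genotype label of the HET samples gives the position without the word for a deletion, so the allele is named after the series title. Whether each sample is a different animal is not given in the labels, so a p-value speaks only of the spread among these libraries. Pkp2 encodes plakophilin-2, a plaque protein of the desmosomes that hold heart muscle cells together.

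An integrin is a pair of an alpha and a beta chain that spans the cell membrane, binds matrix outside and connects to actin inside through talin and kindlin. A laminin is a trimer of an alpha, a beta and a gamma chain in the basement membrane. In striated muscle the alpha7 beta1 integrin, from Itga7 and Itgb1, and the dystroglycan complex are the main laminin receptors, and the alpha2 chain from Lama2 is the ligand that gives muscle laminin its name; loss of Lama2 or Itga7 causes muscle disease in mice and people. The beta2 integrins, from Itgb2 with Itgal, Itgam, Itgax or Itgad, are made by leukocytes and not by muscle, and Itgb7 and Itgae are lymphocyte chains.

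Total counts were 32397302 to 38611008 in HET libraries and 38510257 to 41234883 in WT libraries. Pkp2 averaged 97.3 ± 7.2 CPM across HET libraries and 163 ± 9.6 CPM across WT libraries (SD, n = 4 each), a log2 fold change of -0.74 (SE 0.065). Its adjusted p was 0.00376 in the edgeR quasi-likelihood fit, after Benjamini-Hochberg correction over all genes, and every HET library lay below every WT library. CPM is a gene's count divided by the library size, after TMM scaling, and expressed per 1e+06 counts. The heart muscle markers Myh6, Tnnt2, Tnni3, Actc1, Ryr2 and Myl2 summed to 68203 to 72070 CPM in HET and 64071 to 68279 CPM in WT. WT replicate 3 held more leukocyte marker RNA than the other 7 libraries, 241 CPM summed over 10 markers, against 148 to 168 CPM in HET and 155 to 168 CPM in the other 3 WT libraries, so results that touch leukocyte genes are given with and without it. Mitochondrial genes took 14.7% of the counts of that library, against 17.1 to 19.1% in each of the other 7.

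Of the 5 members at an unadjusted p under 0.05, 3 were leukocyte chains (Itgal, Itgax and Itgb7). The regulatory sequences of Itgax and Itgb7 are shown first, with that of Itgam, a leukocyte chain not among the 5 (unadjusted p = 0.414 by edgeR). Itgb1 is added because it had the narrowest spread between libraries of the 33 tested members (1.12 times from lowest to highest). RefSeq promoter windows (GRCm38.p6) matched 23 of the 37 genes, and Itgal was not among them. The 250 bases before the start are printed, 5′ to 3′ on the gene's strand. Capitals mark GAGGAA on either strand, the purine-rich core that PU.1, the transcription factor of myeloid cells, binds. This motif was found in 23.25% of 32851 promoter windows of the same length, and 13 of the 23 matched members held it in any of their windows. The first share is counted per window and the second per gene, and the shares were not compared by a test. A match is therefore only a description. The windows are chr7:128062390-128062639, plus strand for Itgam, chr7:128129300-128129549, plus strand for Itgax, chr15:102231936-102232185, minus strand for Itgb7 and chr8:128685404-128685653, plus strand for Itgb1.
Itgam: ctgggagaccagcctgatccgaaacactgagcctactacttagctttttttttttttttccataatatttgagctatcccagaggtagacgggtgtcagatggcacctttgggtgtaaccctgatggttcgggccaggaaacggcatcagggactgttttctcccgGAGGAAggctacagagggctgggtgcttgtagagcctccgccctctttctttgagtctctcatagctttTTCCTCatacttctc
Itgax: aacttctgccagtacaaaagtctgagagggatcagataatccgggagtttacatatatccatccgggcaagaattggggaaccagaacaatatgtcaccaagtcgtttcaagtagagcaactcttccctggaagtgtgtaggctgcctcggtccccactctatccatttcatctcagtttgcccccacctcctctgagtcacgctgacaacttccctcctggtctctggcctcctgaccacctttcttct
Itgb7: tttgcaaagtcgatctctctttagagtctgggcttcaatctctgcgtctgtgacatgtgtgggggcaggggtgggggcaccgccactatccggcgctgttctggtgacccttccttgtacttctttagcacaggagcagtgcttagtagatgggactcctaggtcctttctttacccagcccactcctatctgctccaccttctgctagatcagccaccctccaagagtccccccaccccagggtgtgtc
Itgb1: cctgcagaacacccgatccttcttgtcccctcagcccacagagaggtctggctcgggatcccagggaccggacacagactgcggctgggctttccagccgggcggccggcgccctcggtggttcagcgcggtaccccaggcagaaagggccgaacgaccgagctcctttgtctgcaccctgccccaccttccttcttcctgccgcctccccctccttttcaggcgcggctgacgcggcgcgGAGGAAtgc
The Itgam window held the motif 2 times and the Itgb1 window 1 time. These letters were absent from the Itgax and Itgb7 windows.

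By level, beta1 led the integrin beta chains, alpha7 was the highest single integrin alpha chain, and beta2 led the laminin chains. Levels of different genes were compared per length, as TPM (transcript abundance scaled to a fixed library total, computed from the counts and the summed exon length in GENCODE M21). Among alpha chains Itga7 was highest, at 73.6 ± 5.1 TPM in HET and 70.3 ± 3.3 TPM in WT (SD, n = 4 each). Itga5, the fibronectin receptor chain, followed at 50.3 ± 3.8 TPM in HET and 48.7 ± 7.2 TPM in WT. Over the 8 libraries the ranges of Itga7 (65.9 to 76.9 TPM) and Itga5 (41.5 to 56.3 TPM) did not overlap. Next came Itga9, a receptor chain for tenascin and for VCAM1, with 34.5 ± 4.7 TPM in HET and 35.0 ± 8.7 TPM in WT, and Itga6, a laminin receptor chain of endothelium and epithelium, with 23.6 ± 2.7 TPM in HET and 25.1 ± 3.4 TPM in WT. The ranges of Itga9 overlapped those of Itga5 and of Itga6, although within each of the 8 libraries Itga5 was above Itga9 and Itga9 above Itga6. With the length of the longest transcript in place of summed exons, Itga6 took the third place and Itga9 the fourth. Itga3, the third laminin-binding alpha chain, had 8.16 ± 0.39 TPM in HET and 7.86 ± 0.23 TPM in WT.

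Below these lay the alpha chains of fibroblasts, smooth muscle and blood cells. Itgav, which binds RGD ligands and activates latent TGF-beta, averaged 4.07 TPM over the 8 libraries. Itga1, a collagen receptor chain, averaged 3.46 TPM and the leukocyte chain Itgam 3.38 TPM, and the ranges of these 3 neighbours overlapped. The fibroblast collagen receptor chain Itga11 averaged 1.97 TPM, Itga8, a nephronectin receptor chain, 1.6 TPM and the collagen receptor chain Itga10 1.35 TPM. The platelet chain Itga2b averaged 0.73 TPM, the leukocyte chains Itgal and Itgax 0.76 and 0.40 TPM, and Itga4, a VCAM1 and fibronectin receptor chain of leukocytes and other cells, 0.42 TPM. From Itga11 down through Itgal each range overlapped that of the next lower chain, and so did those of Itga4 and Itgax. Itgae, Itga2 and Itgad were the lowest, at means of 0.0832 to 0.125 TPM.

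Itgb1 was the top beta chain, at 263 ± 14 TPM in HET and 257 ± 15 TPM in WT (SD, n = 4 each). It made up 72.4 ± 1.2% of all beta chain TPM in HET and 71.6 ± 0.5% in WT. Itgb5, a partner of alphav, came next at 82.8 ± 4.0 TPM in HET and 83.0 ± 2.8 TPM in WT, and the ranges of these top chains did not overlap. Itgb6, an epithelial alphav partner, averaged 8.66 TPM over the 8 libraries and the leukocyte chain Itgb2 6.05 TPM. Itgb4, the laminin-binding partner of alpha6, averaged 1.29 TPM, and Itgb3, the partner of alphav and of the platelet chain, 1.18 TPM. Itgb7 averaged 0.74 TPM and the alphav partner Itgb8 0.155 TPM. Ranges overlapped between Itgb6 and Itgb2, between Itgb4 and Itgb3, and between Itgb3 and Itgb7. The 12 alpha chains that can pair with beta1 summed to 203 ± 16 TPM in HET and 200 ± 23 TPM in WT, below Itgb1 itself in all 8 libraries. This order turned with longest-transcript lengths, where the sum was 262 ± 20 TPM in HET and 258 ± 26 TPM in WT, above Itgb1 (231 ± 12 TPM in HET and 225 ± 13 TPM in WT) in all 8 libraries.

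Among laminins Lamb2, the beta2 chain of muscle and vessel basement membranes, was highest, at 275 ± 21 TPM in HET and 258 ± 10 TPM in WT (SD, n = 4 each). Lamc1, the gamma1 chain shared by most laminins, had 75.9 ± 8.3 TPM in HET and 81.4 ± 7.6 TPM in WT. Lamb1 had 32.1 ± 2.8 TPM in HET and 33.9 ± 4.6 TPM in WT. Lamb2 thus held 88.3 ± 1.1% of beta chain TPM in HET and 86.9 ± 0.9% in WT, and Lamc1 97.0 ± 0.3% of gamma chain TPM in HET and 97.2 ± 0.2% in WT. Of the alpha chains, Lama5, a chain of vessel basement membranes, led at 58.0 ± 3.4 TPM in HET and 59.3 ± 10.5 TPM in WT, a range that overlapped that of Lamc1. The endothelial chain Lama4 had 22.2 ± 1.4 TPM in HET and 23.0 ± 2.4 TPM in WT, and the muscle chain Lama2 had 19.9 ± 1.1 TPM in HET and 19.1 ± 1.1 TPM in WT. The ranges of Lama4 and Lama2 overlapped, though Lama4 was above Lama2 in each of the 8 libraries. As a share of laminin alpha chain TPM, Lama2 made up 19.7 ± 1.2% in HET and 18.9 ± 2.4% in WT. With longest-transcript lengths these shares were 24.7% in HET and 23.6% in WT, so they depend on the gene length used, while the rank order of the 11 laminin chains was the same. The epithelial chains Lamb3 and Lama3 were low, with means over the 8 libraries of 4.68 TPM for Lamb3 and 0.958 TPM for Lama3, and Lamc3 averaged 0.367 TPM.

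**Figure D1:**
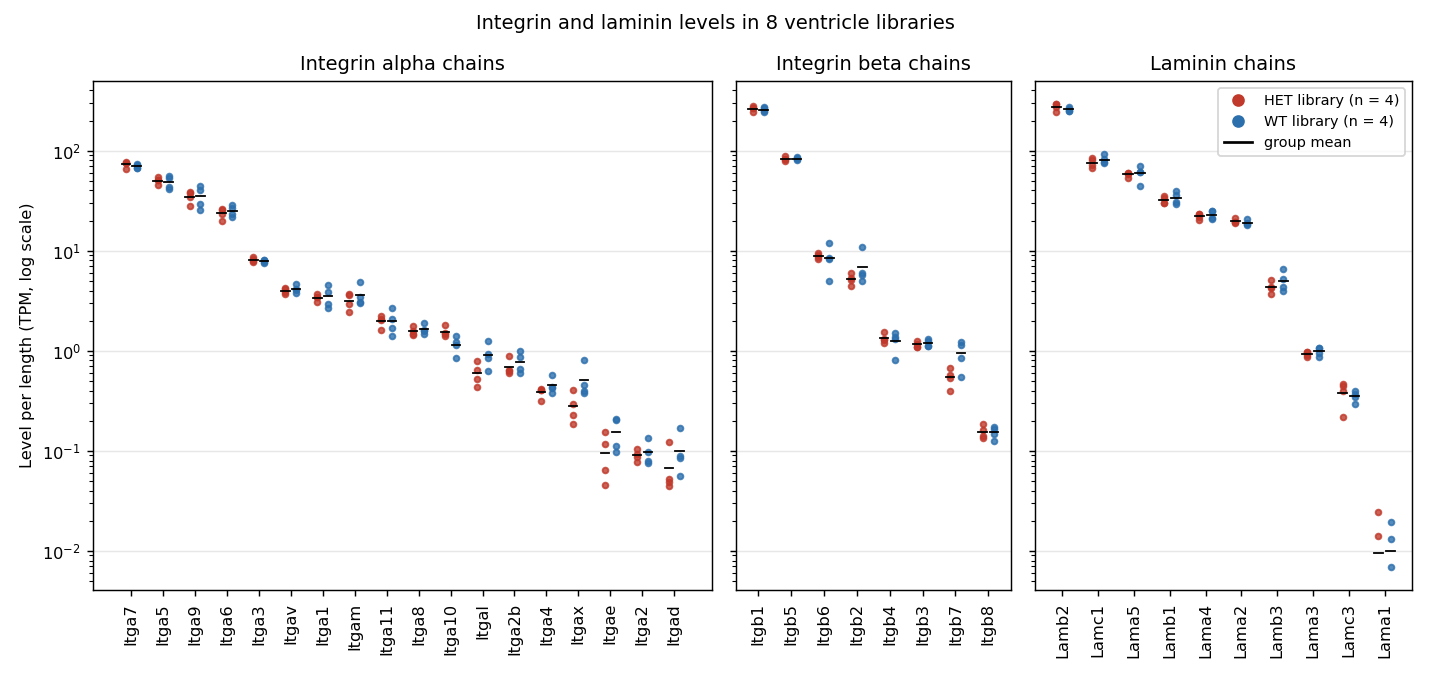
Level per length in TPM (log axis) of the integrin alpha chains, integrin beta chains and laminin chains reported by name, ordered by mean. Points are single libraries (HET left, WT right, 4 each), dashes are group means, and libraries with 0 counts of Lama1 are not drawn. Itgb1 and Lamb2 stand at about the same height, and HET and WT means lie close together for nearly every gene.

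The filter on low counts left 33 of the 37 genes for the test, out of 14567 genes in all. Those below it were Itga2 (7 to 14 counts per library), Itgae (3 to 14), Itgad (3 to 11) and Lama1 (0 to 3). Itgad is a macrophage partner of beta2, Itga2 the platelet and epithelial collagen receptor chain, Itgae the chain of resident lymphocytes, and Lama1 the laminin alpha chain of embryonic basement membrane. At these counts no difference between the groups could be read.

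None of the 33 tested members differed between HET and WT after adjustment. By edgeR 0 were called at an adjusted p under 0.05, where 0.00686% of all tested genes (Pkp2 alone) were, and DESeq2 and limma-voom also called 0 members. Member adjusted p-values by edgeR began at 0.770. Log2 fold changes (HET over WT) were positive for 17 and negative for 16 members, with a median of 0.0006 against -0.0038 over all genes tested. At an unadjusted p under 0.05 by edgeR there were 5 members (15.2%), 2 higher and 3 lower in HET, where 6.38% of all genes stood (2.75% higher and 3.63% lower). Of these 5, 3 were leukocyte chains. Among the 28 tested members outside the leukocyte chains the share was 7.14%, close to the background. DESeq2 gave 5 members and limma-voom 4 at an unadjusted p under 0.05, against 6.5% and 8.19% of all genes. Without WT replicate 3 the edgeR count was 1, Itga10, and so no leukocyte chain. It was 2 without WT replicate 4, 3 without HET replicate 2 or HET replicate 3, and 3 when only genes reaching 1 CPM in 4 or more libraries were kept. That filter left 29 members to test, without Itgax and Itgb7. The share of all genes also moved. It was 8.09% without WT replicate 3, 5.16% without WT replicate 4 and 8.19% without HET replicate 2. Without HET replicate 3 the share was 3.6%, and with the 1 CPM filter 6.16%.

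**Figure D2:**
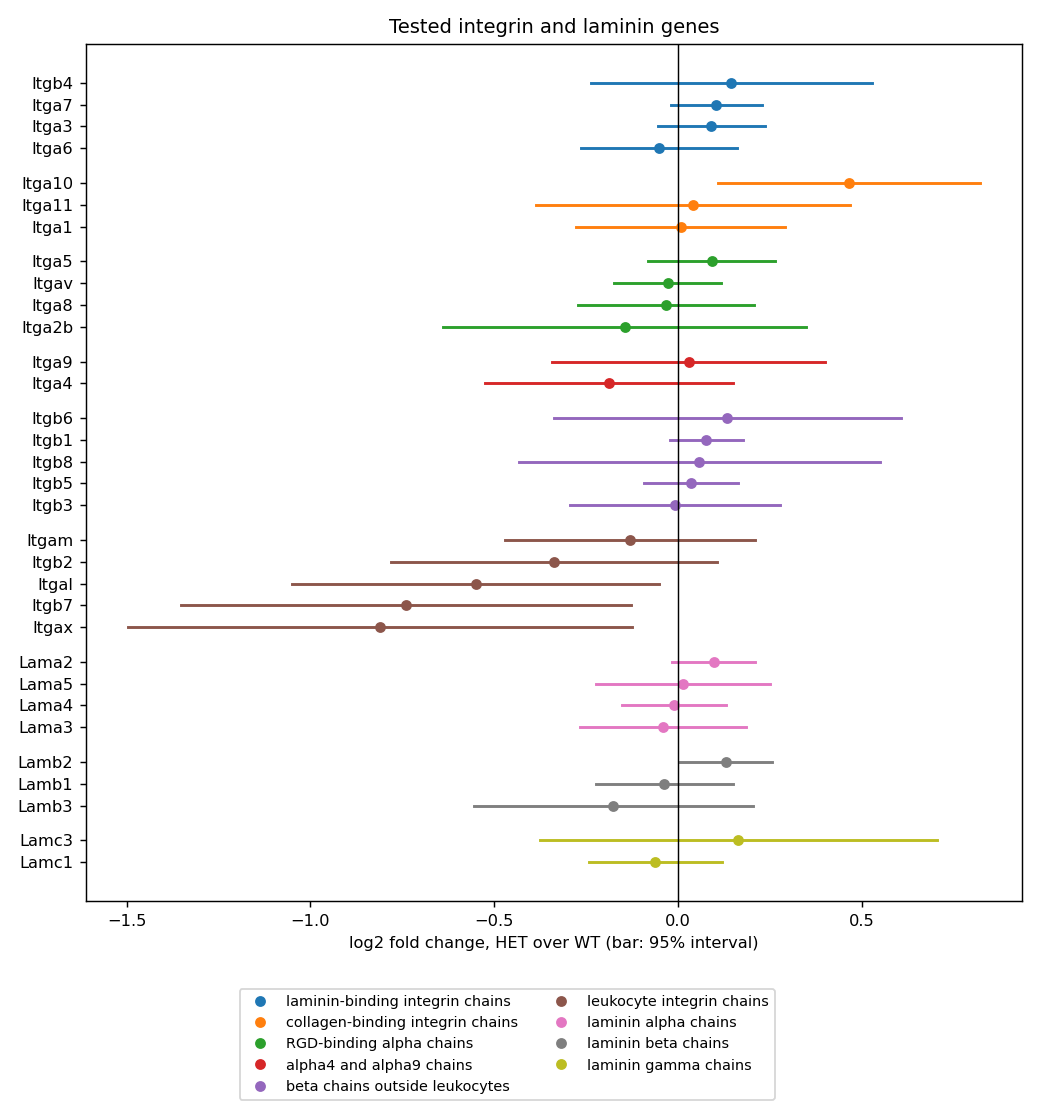
Log2 fold change, HET over WT, of the tested members reported by name, with 95% intervals from the edgeR fit, grouped and coloured by role. The receptor and laminin chains of muscle cluster near 0, with narrow intervals for abundant genes such as Itgb1 (-0.02 to 0.18), and the 5 leukocyte chains lie left of 0.

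Itgb1, a widely expressed chain of the muscle laminin receptor that also pairs with other alpha chains, varied little between libraries. Itgb1 (chromosome 8, 128685654 to 128733200, plus strand of GRCm38) measured 424, 396, 416 and 433 CPM in HET libraries, against 410, 393, 393 and 386 CPM in WT libraries. Only HET replicate 2 lay inside the WT range. The log2 fold change was 0.08 (SE 0.045, 95% interval -0.02 to 0.18, adjusted p = 0.770 by edgeR). The highest of the 8 libraries held 1.12 times the CPM of the lowest, the smallest such spread among the 33 tested members. Scaling by total counts alone (library-size scaling) gave a log2 fold change of 0.03, and taking the digits that some sample titles share, whose meaning is not given, as a covariate gave 0.04. HET replicates 1, 3 and 4 shared these digits with WT replicate 1. HET replicate 2 shared its digits with WT replicates 3 and 4, and WT replicate 2 shared its digits with no other library. This covariate is therefore partly confounded with genotype.

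Itga7 (chromosome 10, 128933818 to 128958282, plus strand) had 240, 211, 240 and 233 CPM in HET libraries, against 227, 219, 206 and 209 CPM in WT libraries. Here too HET replicate 2 was the one HET library within the WT range. Its log2 fold change was 0.10 (SE 0.056, 95% interval -0.02 to 0.23, adjusted p = 0.770 by edgeR), with 0.06 under library-size scaling and 0.05 with the title digits as covariate. Itga7 made up 69.9 ± 0.8% of the TPM of the 3 laminin-binding alpha chains in HET and 68.1 ± 1.2% in WT (SD, n = 4 each). Of the TPM of all alpha chains that can pair with beta1, Itga7 made up 36.2 ± 0.8% in HET and 35.4 ± 2.5% in WT. With longest-transcript lengths that share was 46.4% in HET and 45.2% in WT. The heart muscle marker sum given above averaged 70181 ± 1582 CPM in HET and 66511 ± 2076 CPM in WT, and most of that gap was Myh6 alone, with 36583 ± 1011 CPM across HET libraries and 33577 ± 665 CPM in WT. Of the 6 markers 4 had positive and 2 (Actc1 and Myl2) negative log2 fold changes, and their part in these values was not tested. In bulk tissue, more cells of a type and more RNA per cell cannot be told apart.

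Apart from Itga10, the tested integrin chains outside leukocytes had log2 fold changes of -0.19 to 0.14. Itga10, a collagen-binding chain known from cartilage, had 2.86, 3.09, 2.93 and 3.59 CPM in HET libraries, against 2.79, 1.74, 2.25 and 2.25 CPM in WT libraries. Its groups did not overlap, which held for 1 of the 33 members, against 3.78% of all genes (1.7% higher and 2.08% lower in HET). Its log2 fold change came to 0.47 (SE 0.161, 95% interval 0.11 to 0.82), with an unadjusted p of 0.0151 and an adjusted p of 0.770 by edgeR. It was 0.30 with the title digits as covariate. Itga10 (chromosome 3, 96645584 to 96664519, plus strand) shares 1739 of its 5186 exon bases with the gene model Gm42957 on the same strand. The count table held no row for Gm42957, and whether the overlap bears on the count was not tested. Itgb5, which lies 17.6 Mb from Pkp2 on chromosome 16, had 123, 116, 107 and 112 CPM in HET and 117, 116, 104 and 109 CPM in WT, so the groups overlapped.

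Of the 10 tested laminin chains, 5 had positive and 5 negative log2 fold changes, and 0 were called by edgeR. Lamb2 (chromosome 9, 108479736 to 108490530, plus strand) had 694, 593, 684 and 631 CPM in HET libraries, against 605, 611, 578 and 582 CPM in WT libraries. HET replicate 2 lay within the WT range and the other 3 HET libraries above it. This gave a log2 fold change of 0.13 (SE 0.056, 95% interval 0.01 to 0.25), with an unadjusted p of 0.0416 and an adjusted p of 0.770 by edgeR. That unadjusted p did not stay under 0.05 in 7 of the 15 alternative fits, and the log2 fold change was 0.17 without HET replicate 2 and 0.09 with library-size scaling.

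Lama2 (chromosome 10, 26980036 to 27619758, minus strand) had 125, 127, 119 and 133 CPM in HET libraries, against 113, 124, 118 and 116 CPM in WT libraries. The groups overlapped through HET replicate 3 and WT replicate 2. The log2 fold change was 0.10 (SE 0.051, 95% interval -0.02 to 0.21, adjusted p = 0.770 by edgeR). It was 0.05 with library-size scaling, 0.13 with the title digits as covariate and 0.07 to 0.12 with a library left out. Lamc1 (chromosome 1, 153218922 to 153332786, minus strand) had 264, 219, 227 and 266 CPM in HET libraries, against 288, 249, 238 and 243 CPM in WT libraries, with a log2 fold change of -0.06 (SE 0.082, 95% interval -0.24 to 0.12, adjusted p = 0.888 by edgeR). Without WT replicate 1 that value was 0.01, and with the title digits as covariate -0.17.

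The 23 tested members not named with a test had log2 fold changes of -0.19 to 0.16 and adjusted p-values of 0.791 and above by edgeR. Their intervals together ran from -0.64 to 0.70. The lower bound was that of Itga2b and the upper that of Lamc3, both low in counts, while for the 17 members of at least 10 CPM the log2 fold changes were -0.18 to 0.13.

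Several chains varied widely between libraries of 1 genotype. WT replicate 1 and WT replicate 3 each held the highest level of 7 of the 33 members. Those of WT replicate 1 included Itga6, Itga9, Itga11, Lama4, Lamb1 and Lamc1. Itga9 stood at 128 CPM in WT replicate 1, against 85 to 116 CPM in HET and 79.1, 110 and 87.3 CPM in the other WT libraries. That library also had the highest sum of the endothelial markers Pecam1, Cdh5, Kdr, Tie1 and Tek, 1110 CPM, against 899 to 1020 CPM in HET and 874 to 912 CPM in the other WT libraries. Its sum of the fibroblast markers Pdgfra, Col1a1, Dcn, Tcf21 and Dpt was the highest too, at 650 CPM. That sum was 545 to 641 CPM in HET and 584 to 638 CPM in the other WT libraries. The part of either cell type in the high levels was not tested. Itgb6, the chain of the epithelial alphav beta6 receptor, was at 23.2, 25.4, 26.3 and 23.6 CPM in HET and at 23.1, 23.5, 29.5 and 13.6 CPM in WT. Lama5 ran from 239 to 269 CPM in HET and from 204 (WT replicate 2) to 305 CPM (WT replicate 4) in WT. The coefficient of variation of Lama5 was 5.2% in HET and 16.5% in WT.

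**Figure D3:**
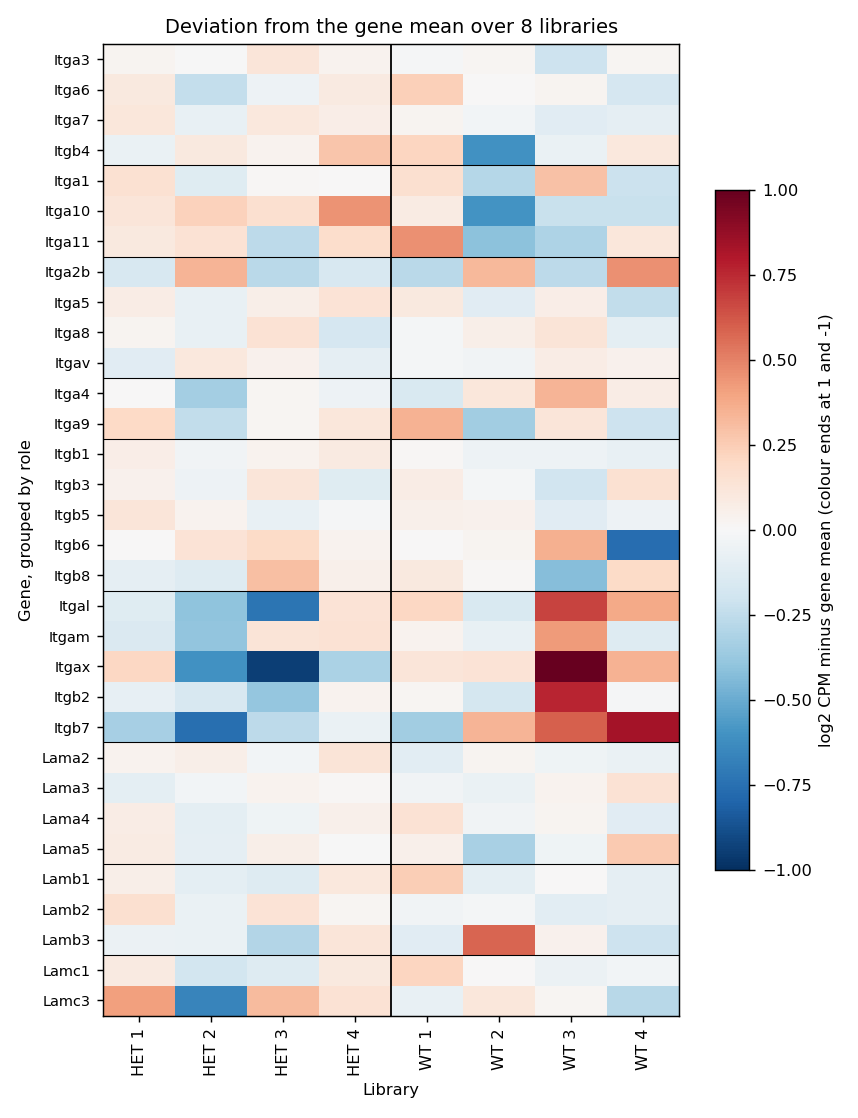
Log2 CPM of each tested member reported by name minus its mean over the 8 libraries, as colour, with HET libraries left of the line and WT right of it. Red cells gather in WT replicate 3 in the rows of leukocyte chains (Itgal, Itgam, Itgax, Itgb2, Itgb7), and the rows of Itgb1, Itga7 and Lama2 are nearly white.

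Leukocyte chains were a small part of integrin RNA, and those tested averaged lower in HET, with no call. All 7 together made up 1.75 ± 0.13% of integrin TPM in HET and 2.30 ± 0.59% in WT (SD, n = 4 each). Without WT replicate 3 the WT share was 2.01 ± 0.18%. All 5 that were tested had a negative log2 fold change, with a median of -0.55, against -0.0038 over all genes. Without WT replicate 3 the median was -0.41. Itgb2, the shared beta2 chain, was at 6.47, 6.12, 5.22 and 6.99 CPM in HET libraries, against 6.92, 6.04, 11.6 and 6.76 CPM in WT libraries. WT replicate 3 alone lay above the HET range. For Itgb2 the log2 fold change was -0.34 (SE 0.198, 95% interval -0.78 to 0.11, adjusted p = 0.770 by edgeR) and was -0.09 without WT replicate 3.

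Itgal, the alpha chain of LFA-1 on lymphocytes, had 1.67, 1.37, 1.09 and 1.99 CPM in HET libraries, against 2.09, 1.64, 2.90 and 2.36 CPM in WT libraries. Itgal had a log2 fold change of -0.55 (SE 0.227), with an unadjusted p of 0.0338 and an adjusted p of 0.770 by edgeR, and -0.41 without WT replicate 3. Itgax, the CD11c chain of dendritic cells and some macrophages, had 0.77, 0.44, 0.35 and 0.53 CPM in HET libraries, against 0.72, 0.73, 1.38 and 0.85 CPM in WT libraries. Its log2 fold change was -0.81 (SE 0.310, unadjusted p = 0.0248, adjusted p = 0.770 by edgeR) and -0.55 without WT replicate 3. HET replicate 1 lay within the WT range for Itgax, and HET replicates 1 and 4 did for Itgal.

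Itgb7, which pairs with alpha4 and alphaE on lymphocytes, had 0.58, 0.44, 0.61 and 0.70 CPM in HET libraries, against 0.58, 0.93, 1.11 and 1.31 CPM in WT libraries. WT replicate 1 was the one WT library within the HET range, and WT replicate 4 rather than WT replicate 3 was highest. Its log2 fold change was -0.74 (SE 0.278, unadjusted p = 0.0224, adjusted p = 0.770 by edgeR) and -0.67 without WT replicate 3. Itgam, the CD11b chain of macrophages and neutrophils, had 5.78, 4.87, 7.01 and 7.07 CPM in HET and 6.56, 6.09, 8.58 and 5.86 CPM in WT, and its log2 fold change of -0.13 became 0.00 without WT replicate 3. Itgam shares 3450 of its 5024 exon bases with the gene model Gm49368 on the same strand. The count table held no row for Gm49368, and whether the overlap bears on the Itgam count was not tested.

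Leukocyte markers that are not integrins were mostly highest in the same library. Of 8 tested markers 7 had a negative log2 fold change (median -0.14), and without WT replicate 3 that was 3 of 8 (median 0.04). Ptprc, the common leukocyte antigen CD45, had 6.68, 6.68, 6.61 and 7.04 CPM in HET and 6.44, 5.99, 12.9 and 7.27 CPM in WT. WT replicate 3 was the highest library for 8 of the 10 markers, and for 4 of the 5 tested chains. In WT replicate 3 the level over the median of the other 7 libraries differed between genes. For the tested chains it was 1.91 times for Itgax, 1.81 for Itgb7, 1.79 for Itgb2, 1.74 for Itgal and 1.41 for Itgam. For the tested markers it was lower for Csf1r (1.29 times), Cd79a (1.33) and Adgre1 (1.43) than for Ptprc (1.94), and Fcgr1 stood slightly above Ptprc. The markers of few counts were at 2.83 times (Cd3e) and 0.12 times (S100a8). Itgb1 was at 0.96 times. Cd68, a macrophage gene, had a log2 fold change of -0.41 (unadjusted p = 0.00878, adjusted p = 0.770 by edgeR). Without WT replicate 3 the Cd68 value was -0.26 (unadjusted p = 0.0122, adjusted p = 0.586 by edgeR). Cd3e had 1 to 9 counts per library and S100a8 1 to 28. The part of leukocyte number in the chain levels was not tested. The platelet chain Itga2b was at 1.35, 1.90, 1.25 and 1.35 CPM in HET and at 1.25, 1.89, 1.26 and 2.07 CPM in WT, while the 5 platelet markers summed to 8.80 to 11.2 CPM in HET and 11.4 to 12.4 CPM in WT. Pf4 made up most of that sum, with 8.68 ± 0.69 CPM across HET libraries and 11.1 ± 0.64 CPM in WT, and the other 2 tested platelet markers, Ppbp and Gp1bb, had positive log2 fold changes of 0.08 and 0.45.

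**Figure D4:**
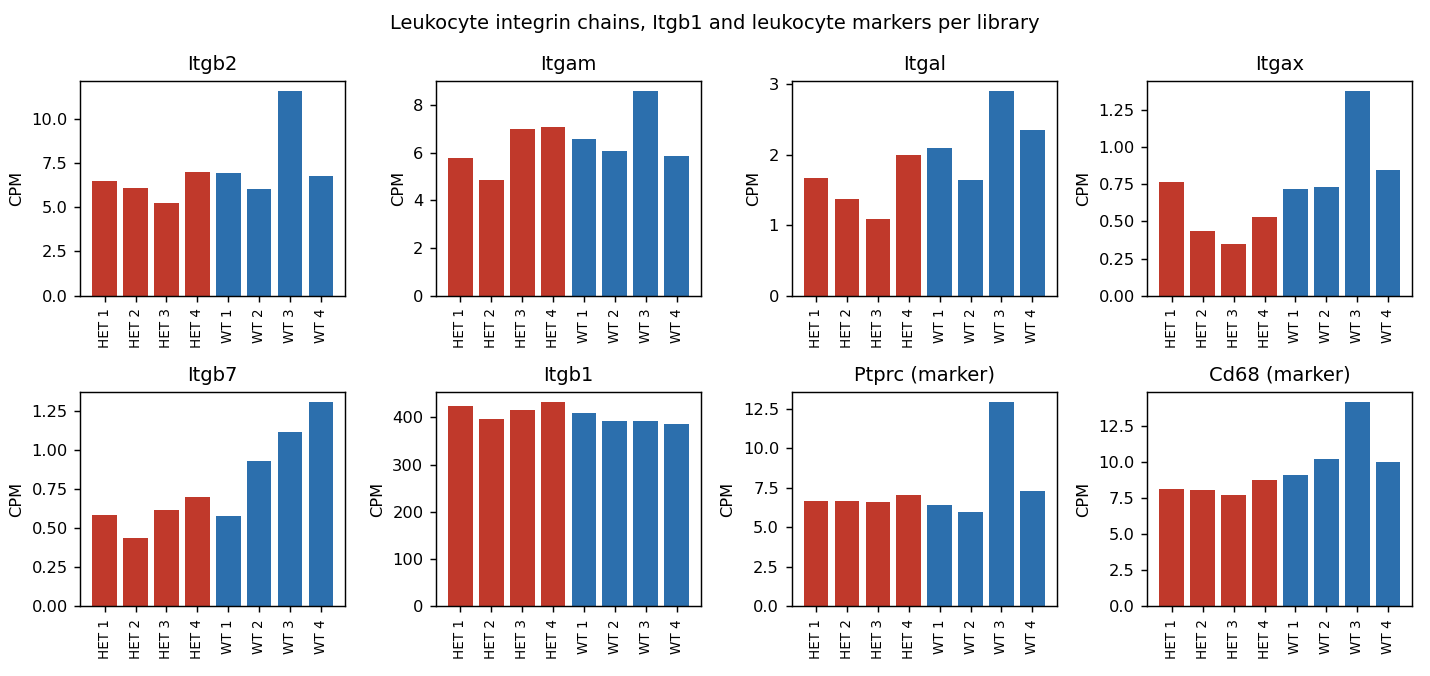
CPM per library of the 5 tested leukocyte integrin chains, of Itgb1 and of the leukocyte markers Ptprc and Cd68. Bars are single libraries, HET (red) left of WT (blue), each axis starting at 0. WT replicate 3 has the tallest bar for Itgb2 (11.6 CPM), Itgam, Itgal, Itgax, Ptprc and Cd68, and its Itgb1 bar (393 CPM) matches the other libraries.

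Ratios of chains within a library, in which library scaling cancels, did not separate the genotypes. Ratios of TPM for 6 pairs of chains were compared with exact two-sided permutation tests over all 70 splits of 4 against 4, which can give no p below 0.0286, with adjustment over the 6. The log2 ratio of Itga7 to Itgb1 was -1.81, -1.89, -1.78 and -1.88 in HET libraries, against -1.84, -1.83, -1.92 and -1.87 in WT libraries. The groups overlapped, and the difference of 0.03 gave p = 0.457 by the exact permutation test (adjusted p = 0.549). Lamb2 to Lamb1 stood at 3.10 ± 0.14 in HET and 2.94 ± 0.15 in WT (SD of the log2 ratio, n = 4 each; exact permutation p = 0.200, adjusted p = 0.400). Lama2 to Lamc1 stood at -1.93 ± 0.12 in HET and -2.09 ± 0.16 in WT (exact permutation p = 0.171, adjusted p = 0.400). The differences for Lama4 to Lama2 and for Lama5 to Lama2 were -0.11 and -0.07, with exact permutation p-values of 0.286 and 0.686. Leaving out WT replicate 1 brought the difference for Lamb2 to Lamb1 from 0.16 down to 0.09, for Lama2 to Lamc1 from 0.16 to 0.08, for Lama4 to Lama2 from -0.11 to -0.04 and for Lama5 to Lama2 from -0.07 to -0.03. Itgb2 to Itgb1, the leukocyte beta chain against the widely expressed one, was at -5.66 ± 0.16 in HET and -5.29 ± 0.42 in WT (exact permutation p = 0.0857, adjusted p = 0.400). Its difference of -0.37 was -0.16 without WT replicate 3.

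**Figure D5:**
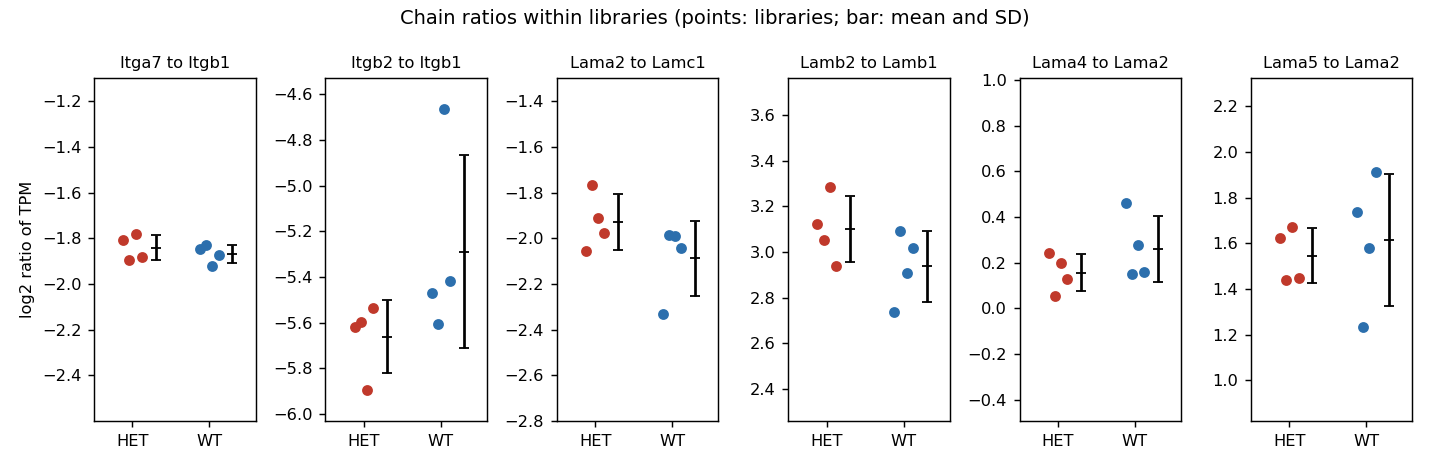
Log2 ratio of TPM of 6 pairs of chains in each library, HET left and WT right, with the group mean and SD (n = 4 each) beside the points. Each panel spans the same height, and the groups overlap in all 6 panels. Itga7 to Itgb1 has the smallest spread, and WT replicate 3 is the lone high point for Itgb2 to Itgb1.

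Genes that work with these receptors and ligands were read from lists, and none of the genes in the 3 lists that follow was called by edgeR. The adhesion complex list holds talins, kindlins, integrin-linked kinase and its partners, with 31 of 32 genes tested (Fermt1 had 0 counts in all 8 libraries). Of these 16 were positive and 15 negative, with a median log2 fold change of 0.005 and 2 (6.45%) at an unadjusted p under 0.05, against 6.38% of all genes. Tns1, a tensin that binds beta tails, averaged 1575 ± 133 CPM across HET libraries and 1397 ± 76 CPM across WT libraries. Its log2 fold change was 0.17 (SE 0.066, adjusted p = 0.770 by edgeR), and 0.07 with the title digits as covariate. Flna, the actin crosslinker filamin A, averaged 230 ± 8 CPM across HET libraries and 250 ± 12 CPM across WT libraries, a log2 fold change of -0.12 (SE 0.050, adjusted p = 0.770 by edgeR).

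The dystrophin-dystroglycan complex, the other laminin receptor of muscle, had 15 of 20 genes positive, where 48.5% of all genes were. Its median was 0.04, against -0.0038 over all genes. Library-size scaling moved the median over all genes to -0.0466, and the count for this list is not given with that scaling. At an unadjusted p under 0.05 there were 2 of its genes (10%), again against 6.38% of all genes. Dag1, dystroglycan itself, averaged 425 ± 43 CPM across HET libraries and 360 ± 49 CPM across WT libraries, with a log2 fold change of 0.24 (SE 0.105, adjusted p = 0.770 by edgeR) that was 0.08 with the title digits as covariate. Sntb2, a syntrophin, averaged 4.60 ± 0.08 CPM across HET libraries and 5.41 ± 0.08 CPM across WT libraries, with groups that did not overlap (as in 3.78% of all genes) and a log2 fold change of -0.23 (SE 0.085, adjusted p = 0.770 by edgeR). Among 21 partners in the basement membrane 10 were positive and 11 negative, with a median of -0.008 and 3 (14.3%) at an unadjusted p under 0.05, against 6.38% of all genes. All 3 were lower in HET, where 3.63% of all genes stood, among them Sparc, a collagen-binding matrix protein, with a log2 fold change of -0.16. Vtn, vitronectin, a ligand of alphav integrins, averaged 30.1 ± 3.1 CPM across HET libraries and 36.1 ± 4.5 CPM across WT libraries, with a log2 fold change of -0.26 (SE 0.098, adjusted p = 0.770 by edgeR) that was -0.17 without WT replicate 4. Col4a4, a collagen IV chain, averaged 6.61 ± 0.79 CPM across HET libraries and 7.97 ± 0.51 CPM across WT libraries, with a log2 fold change of -0.27 (SE 0.102, adjusted p = 0.770 by edgeR).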

How the data were processed

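Poly(A)-selected RNA from ventricle was sequenced with a stranded TruSeq kit, per the labels' protocols. The authors deposited raw read counts per Ensembl gene, not normalised. STAR 2.4.2a, HTSeq 0.6.1 and the build GRCm38 are named in the submitters' processing notes. The annotation release and the strand setting of counting are not given in the sources used here, and 12 of the 37 genes share exon bases with another gene model. Gene isoforms were not analysed here.

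Symbols came by Ensembl identifier (36345 of 38293 genes, and 0.143% of counts lacked one), and positions and exon lengths from GENCODE M21. Counts were fitted with edgeR 4.0.16 in R 4.3.3 (filterByExpr, TMM, robust quasi-likelihood fit, no covariate, Benjamini-Hochberg over 14567 genes, threshold 0.05, common biological coefficient of variation 0.143). The procedure was also run on simulated counts drawn with the dispersions of these data. The outcome is not reported here, and no result above rests on it. Standard errors come from the F statistic. Replicates of a group differed beyond sampling noise (mean chi-square per gene at least 14.0). Over all genes compared, WT replicate 3 stood furthest from its group. Its pairs with the other WT libraries gave 68.0 to 85.8, against 22.3 to 40.9 for WT pairs without it and 14.0 to 26.1 for HET pairs. Groups came from the genotype labels, with replicates numbered in order of deposition.

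Alternatives were DESeq2 1.42.0, limma-voom with sample quality weights (limma 3.58.1), RLE and library-size scaling, other filters, the digits shared by some sample titles as covariate (their meaning is not given), and each library left out. The longest-transcript length and the median over leukocyte chains were added after the data were seen. The members and lists were chosen with earlier results of these data known. A fold change with its test is given for Itgb1, Itga7, Lama2, Lamb2, Lamc1 and Itgb2 and for the 8 members of smallest p, and for the 2 genes of smallest p in each pathway list. Genes named otherwise were chosen after their values were seen. The values of 1 member are included in counts and sums and are not reported here by name.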

Additional observations from a re-analysis of the deposited data

Results flagged for a closer look

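Over 78 groups of 4 values (33 members and 6 ratios, HET and WT each), 3 held a library far from the other 3 of its group, where chance gives about 1 in 20. Itgb2 stood at 11.6 CPM in WT replicate 3, against 6.04 to 6.92 CPM in the other WT libraries. Itga3, a laminin-binding chain, stood at 15.2 CPM in the same library, against 17.3 to 17.8 CPM in the others. The platelet chain Itga2b stood at 1.90 CPM in HET replicate 2, against 1.25 to 1.35 CPM in the other HET libraries.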

How the results depend on the processing

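No paired analysis was possible because the labels give no replicate numbers and those used here follow the order of deposition. The count of called members was 0 in all 15 alternatives. Over all genes 1 was called, 13 with DESeq2, 2 without a filter on low counts and 1 to 3 with a library left out (3 without HET replicate 3). Of members, 5 had an unadjusted p under 0.05 by edgeR, 3 when only genes reaching 1 CPM in 4 or more libraries were kept and 1 to 7 with a library left out. Over all genes these shares were 6.38%, 6.16% and 3.6 to 8.44%. The title digits as covariate also gave 5 members (4.95% of all genes), but Itgal was the only member shared with the 5 of the comparison without it. Lamc1 changed sign without WT replicate 1 (0.0061), over a range of -0.10 to 0.01 with a library left out. The log2 ratio of Lama5 to Lama2 ran from -0.20 to 0.03, and was 0.0276 without WT replicate 4. The causes were not tested. Of the 10 members given with a test, those other than Lamc1 had the same sign in the alternatives that could be fitted, while Itgam turned from -0.13 to 0.0018 without WT replicate 3. The median of the leukocyte chains ran from -0.70 to -0.41 in the fits that tested all 5. With the filter of 1 CPM in 4 or more libraries only 3 of them were tested, and the median was -0.34. With longest-transcript lengths the HET means were 231 TPM for Itgb1, 122 for Itga7, 27.7 for Lama2 and 244 for Lamb2. Low counts limit Itgax, Itgb7, Itgb8 and Lamc3. Ratios of raw counts were not run, since gene length shifts each log2 ratio by a constant.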
